A study of Mus musculus with 4 samples.

Results

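The miR-99/100 family was followed in small RNA libraries of NIH-3T3, a long-used cell line of mouse embryo fibroblasts. Its 6 measured arms are mmu-miR-99a, mmu-miR-99b and mmu-miR-100 and the star arms mmu-miR-99a*, mmu-miR-99b* and mmu-miR-100* (named without the mouse prefix from here on), out of 630 miRNA arms with reads in the series. Members were taken by name from reads that matched 1 miRNA only, and the reads were summed per name. All 6 were present in every library. The family was selected on its read counts in thapsigargin against control libraries, which were known beforehand, so its fold changes describe these libraries and carry no test.

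The thapsigargin group held 2 libraries from cells given 500 nM of the drug for 24 h, and the control group held 2 libraries from untreated cells. Cells of both groups were grown to confluency, and the labels name no vehicle in the controls. Thapsigargin blocks the SERCA calcium pump, which empties the calcium store of the endoplasmic reticulum and brings on ER stress. No label states that replicates came from separate cultures, so their spread may be technical.

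miRNAs are cut from a hairpin precursor as a duplex. One strand, here called the main arm, is mostly loaded into Argonaute and guides it to mRNAs through the seed, bases 2 to 8. The other, the star arm, is mostly degraded. The miR-99/100 family is among the oldest known in animals. In mammalian cells its reported targets include the kinase mTOR and the receptor IGF1R, both of which drive growth. Each of its genes lies beside a let-7 gene and a miR-125 gene. In RefSeq these groups of 3 genes are on chromosome 17 (miR-99b, let-7e, miR-125a), chromosome 9 (miR-100, let-7a-2, miR-125b-1) and chromosome 16 (miR-99a, let-7c-1, miR-125b-2).

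The RefSeq mature sequences of the main arms (GRCm38.p6, all on the plus strand) are shown because the read counts of the members are told apart by very few bases. Capitals mark the seed.
miR-99a: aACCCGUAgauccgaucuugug
miR-99b: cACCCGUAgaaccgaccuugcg
miR-100: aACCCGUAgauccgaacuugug
miR-10b: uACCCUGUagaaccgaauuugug
The 3 family members share the seed ACCCGUA. miR-99a and miR-100 are identical at 21 of 22 bases and differ by U16A, with miR-99a's base given first and positions counted from 1 at the 5′ end. miR-99a and miR-99b are identical at 18 of 22 bases and differ by A1C, U11A, U16C and U21C. miR-10b, the most abundant arm of these libraries, has a related sequence with another seed.

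The star arms have these RefSeq sequences, again with the bases at 2 to 8 in capitals.
miR-99a*: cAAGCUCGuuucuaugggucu
miR-99b*: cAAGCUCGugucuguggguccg
miR-100*: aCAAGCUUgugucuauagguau

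Despite the close likeness, few reads of the family matched more than 1 miRNA. Whether reads that matched 1 miRNA only were assigned to the wrong member was not examined. Reads that matched a member and at least 1 other miRNA numbered 23 and 6 in thapsigargin replicates 1 and 2 and 4 and 21 in control replicates 1 and 2, at most 0.0625% of the family's assigned reads. Adding them left every member's log2 fold change within the spread between replicates. Reads placed on the 3 hairpins outside the annotated arms numbered 3 and 4 with thapsigargin and 14 and 4 in controls.

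Arm reads numbered 5570971 and 2685965 in thapsigargin replicates 1 and 2 and 3857002 and 3633414 in control replicates 1 and 2. Levels below are in CPM, counts divided by library size after TMM scaling, which corrects for composition. miR-10b held 41.7% and 53.3% of all arm reads with thapsigargin and 35.7% and 56.6% in controls. Cell type marker lists were counted from reads that matched 1 miRNA only. Of 6 fibroblast-lineage markers 5 had such reads, and miR-199a-3p had none. Reads of miR-199a-3p that also matched another name would not be counted, so its absence is not shown. Together the 5 took 17.97% and 12.2% of the arm reads with thapsigargin and 14.8% and 7.88% in controls. Markers of embryonic stem, epithelial, muscle and liver cells summed to at most 12 reads per list and library, with miR-1, miR-133b, miR-290-5p, miR-291a-3p, miR-292-3p and miR-294 listed with no reads. The blood list, at 609 and 180 reads with thapsigargin and 436 and 356 in controls, and the neural list, at 4281 and 1354 against 2610 and 914, were higher. Their part in the results was not tested. Control replicate 1 stood apart in its read ends. In 127 or 128 of 131 arms with at least 100 reads in every library, the commonest read of each other library began 1 base later than in control replicate 1.

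The main arms of the family were lower in both thapsigargin libraries than in both controls, while the star arms were not. miR-99b had 46067 and 7821 reads in thapsigargin replicates 1 and 2, against 49341 and 70649 reads in control replicates 1 and 2. That was 0.827% and 0.291% of the arm reads with thapsigargin, against 1.28% and 1.94% in controls. Scaled, miR-99b stood at 7439 and 4087 CPM with thapsigargin and 9117 and 21610 CPM in controls. The groups did not overlap, but thapsigargin replicate 1 and control replicate 1 lay close together. The spread was widest among the controls, where replicate 2 had 2.37 times the CPM of replicate 1. The log2 fold change of miR-99b was -1.41 (SE 0.57).

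miR-100 had 6300 and 1130 reads with thapsigargin, against 7437 and 7888 reads in controls. It stood at 1017 and 590.5 CPM with thapsigargin and 1374 and 2412 CPM in controls. The order of the libraries was that of miR-99b, with thapsigargin replicate 2 lowest and control replicate 2 highest. Its log2 fold change was -1.24 (SE 0.52).

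miR-99a, the scarcest main arm, had 1020 and 206 reads with thapsigargin, against 1540 and 1291 reads in controls. It stood at 164.7 and 107.7 CPM with thapsigargin and 284.5 and 394.8 CPM in controls, again without overlap. Its log2 fold change was -1.32 (SE 0.52). In the authors' deposited table the log2 fold changes were -1.43 for miR-99b, -1.27 for miR-100 and -1.36 for miR-99a.

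**Figure D1:**
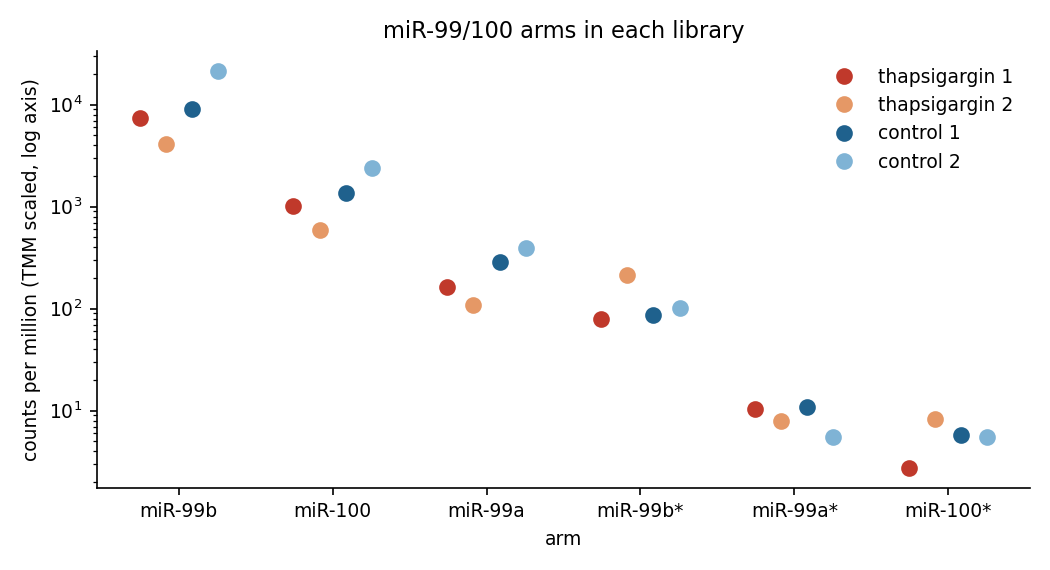
Level of each family arm in each library, in TMM-scaled CPM on a log axis, with 1 point per library. The 3 main arms at the left have both thapsigargin points below both control points, and the 3 star arms at the right do not.

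Summed over the main arms, the family stood at 6703 ± 2712 CPM with thapsigargin and 17590 ± 9644 CPM in controls (SD, n = 2 each). The log2 ratio of these means was -1.39. Within the thapsigargin group replicate 1 had 1.802 times the CPM of replicate 2, and within the controls replicate 2 had 2.26 times that of replicate 1, while the nearest libraries across the groups, control replicate 1 and thapsigargin replicate 1, differed 1.25 times. Without control replicate 2 the log2 ratio was -0.70, and without thapsigargin replicate 1 it was -1.91. Fewer cells expressing the family and less of it per cell cannot be told apart in these bulk samples.

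Across all 310 arms that passed the filter on low counts, the quasi-likelihood test of edgeR called 0 arms (0%) at a Benjamini-Hochberg adjusted p of 0.05, so 0 of the 6 members were called, and 12 arms had an unadjusted p under 0.05. DESeq2 and limma-voom also called 0, with 15 and 13 arms at an unadjusted p under 0.05. All 6 members passed the filter. Both thapsigargin libraries lay below both controls in 3 of the 6 members, against 50 of 310 arms (16.1%). On unscaled shares of the arm reads it was also 3 of 6 members, against 77 of 310 arms (24.8%). This contrast was used in choosing the family.

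The mix of the family hardly differed between the libraries. miR-99b made up 86.3% and 85.4% of the main-arm reads of the family with thapsigargin and 84.6% and 88.5% in controls. miR-100 made up 11.8% and 12.3% with thapsigargin and 12.8% and 9.88% in controls. miR-99a made up 1.91% and 2.25% with thapsigargin and 2.64% and 1.62% in controls. For each of the 3, the widest gap was between the control replicates, with the thapsigargin libraries inside their range. Ranked by reads among all arms, miR-99b was at 16 and 21 in the thapsigargin libraries and at 12 and 5 in controls.

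No star arm had both thapsigargin libraries below both controls, and the difference between main and star arms was not tested. miR-99b* had 487 and 406 reads with thapsigargin, against 472 and 333 reads in controls, which was 78.6 and 212 CPM with thapsigargin and 87.2 and 102 CPM in controls. Its groups overlapped, and the single high value was that of thapsigargin replicate 2. Its log2 fold change was 0.62 (SE 0.60), and -0.25 without thapsigargin replicate 2. miR-99a* had 64 and 15 reads with thapsigargin and 59 and 18 in controls, a log2 fold change of 0.15 (SE 0.63) that was -0.23 when scaled by total reads alone. miR-100* had 17 and 16 reads with thapsigargin and 31 and 18 in controls, a log2 fold change of -0.10 (SE 0.73) that was 0.52 without thapsigargin replicate 1 and -1.01 without thapsigargin replicate 2. For miR-99a* and miR-100* the difference over all libraries was smaller than its standard error. Without thapsigargin replicate 2, miR-100 was at -0.88, beside miR-100* at -1.01.

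The star share of a hairpin is the part of its main and star reads that came from the star arm, and it does not depend on how the libraries are scaled. For miR-99a the star arm gave 5.90% (95% Wilson interval 4.65 to 7.47) and 6.79% (4.16 to 10.9) with thapsigargin, against 3.69% (2.87 to 4.73) and 1.38% (0.872 to 2.16) in controls. The thapsigargin libraries both lay above the controls, although the intervals of thapsigargin replicates 1 and 2 overlap that of control replicate 1. For miR-99b the shares were 1.05% (0.958 to 1.14) and 4.93% (4.49 to 5.42) with thapsigargin, against 0.948% (0.866 to 1.04) and 0.469% (0.421 to 0.522) in controls. Here thapsigargin replicate 2 stood far above the other libraries, and thapsigargin replicate 1 was close to control replicate 1. For miR-100 the shares were 0.269% (0.168 to 0.431) and 1.396% (0.861 to 2.26) with thapsigargin, against 0.415% (0.293 to 0.589) and 0.228% (0.144 to 0.360) in controls, and the groups overlapped. These intervals cover counting error only. Of 55 hairpins with at least 5 reads of each arm in every library, the family's included, 12 (21.8%) had both thapsigargin shares above both controls. miR-99a and miR-99b are among those 12. The shares rest on the counts that chose the family, so they are a description.

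**Figure D2:**
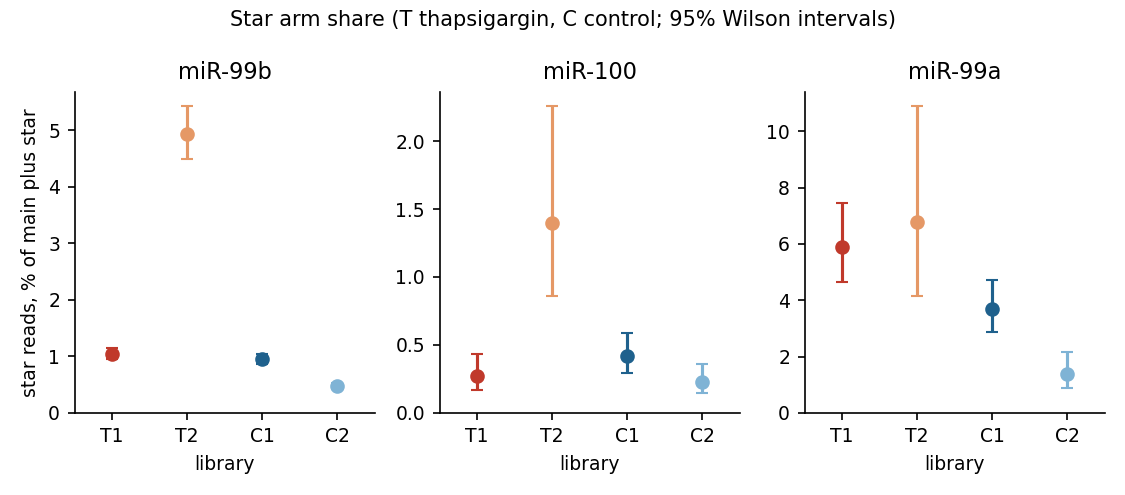
Star reads as a percent of main plus star reads for each hairpin and library (T thapsigargin, C control, replicates 1 and 2), with 95% Wilson intervals. For miR-99b thapsigargin replicate 2 is at 4.93%, while the other 3 libraries lie at 1.05% or below.

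The let-7 and miR-125 arms from the genes beside the family lay on both sides of 0. Of the 12 neighbouring arms with reads, 9 passed the filter and 0 were called (0% of all arms). Of the 9, 6 were below 0, against 155 of 310 arms. Their median log2 fold change was -0.20, against -0.01 over all 310 arms. Both thapsigargin libraries lay below both controls in 2 of the 9 (16.1% of all arms) and above them in 3 (54 of 310 arms, 17.4%). These neighbours share the counting of the members but were listed with earlier results known.

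In the chromosome 17 group, let-7e, a member of the let-7 family that represses growth genes, stood at 1800 and 1581 CPM with thapsigargin and 1560 and 1063 CPM in controls. Its log2 fold change was 0.37 (SE 0.46), and -0.01 when scaled by total reads alone. miR-125a-5p stood at 4636 and 1802 CPM with thapsigargin and 4529 and 2266 CPM in controls, a log2 fold change of -0.08 (SE 0.60). Single-library omissions moved it between -0.97 and 0.52. In that arm the replicates of each group differed more than the groups did. Its partner from the same hairpin, miR-125a-3p, stood at 13.6 and 19.3 CPM with thapsigargin and 25.5 and 36.1 CPM in controls, a log2 fold change of -0.91 (SE 0.53). For each let-7e read there were 4.13 and 2.58 miR-99b reads with thapsigargin, against 5.84 and 20.3 in controls. For each miR-125a-5p read there were 1.60 and 2.27 miR-99b reads with thapsigargin, against 2.01 and 9.54 in controls. Control replicate 2 set the high end of both ratios.

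let-7a, made from the chromosome 9 group and from another locus, stood at 7607 and 6540 CPM with thapsigargin and 4792 and 2952 CPM in controls, a log2 fold change of 0.87 (SE 0.47). let-7c, made from the chromosome 16 group and from another locus, stood at 12560 and 15850 CPM with thapsigargin and 10220 and 6670 CPM in controls, a log2 fold change of 0.75 (SE 0.47). Scaled by total reads alone, let-7a was at 0.48 and let-7c at 0.31, and without control replicate 2 they were at 0.54 and 0.44. Both stayed above 0 in these fits, on the other side from miR-100 and miR-99a beside them. miR-125b-5p, which both groups encode, had a log2 fold change of -0.20 (SE 0.70), which single-library omissions moved between -1.32 and 0.71. Its star arms come from 1 gene each: miR-125b-1-3p, beside miR-100, was at -0.42 (SE 0.50), and miR-125b-2-3p, beside miR-99a, was at -0.53 (SE 0.50).

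**Figure D3:**
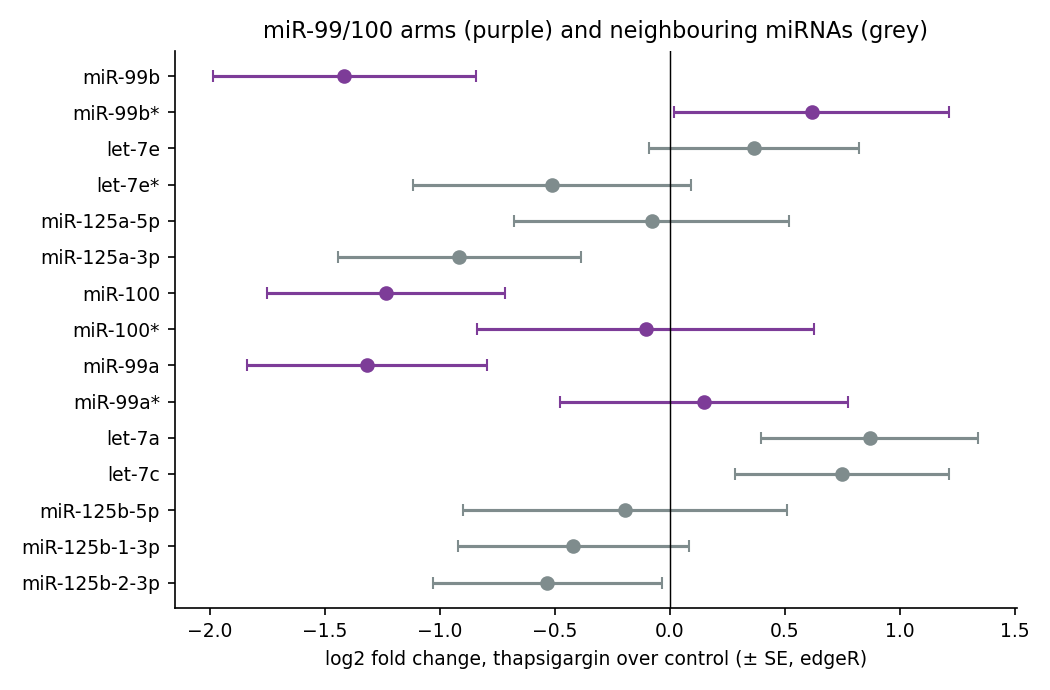
Log2 fold change of thapsigargin over control with its standard error, from edgeR with 2 libraries per group, for the 6 family arms (purple) and the 9 tested neighbouring arms (grey). miR-99b, miR-100 and miR-99a lie between -1.41 and -1.24, and the neighbouring arms run from -0.91 for miR-125a-3p to 0.87 for let-7a, with 6 of the 9 below 0.

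miR-10a and miR-10b, which have related sequences and lie in Hox gene clusters, differed less. The log2 fold change was 0.35 (SE 0.63) for miR-10b, and -0.21 (SE 0.51) for miR-10a. Leaving out each library in turn gave -0.21 to 1.10 for miR-10b and -0.55 to 0.21 for miR-10a. Of the 4 miR-10 arms, 0 were called (0% of all arms) and 1, miR-10a*, had both thapsigargin libraries below both controls (16.1% of all arms).

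Candidates for the most similar profile were 193 other tested arms whose mean count was 50 or more. The 5 whose 4-library profile was closest to the mean of the main arms were miR-1249, let-7b*, miR-574-3p, miR-342-3p and miR-361. Likeness was the root mean square distance between log2 CPM profiles, each centred on its own mean. It was 0.19, 0.20, 0.25, 0.29 and 0.34 for those arms in that order, and 0.14, 0.15 and 0.04 for miR-99a, miR-99b and miR-100. The family arms are part of that mean, so they lie near it by construction. In all 5, as in the family, thapsigargin replicate 2 was lowest and control replicate 2 highest. This is a description over 4 libraries.

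The 5′ ends of the reads were not used in choosing the family. miR-99b reads are shown to make the ends visible, with the base that only the longer form has in capitals.
RefSeq start: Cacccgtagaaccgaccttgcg
1 base later: acccgtagaaccgaccttgcg
5′ short form: cgtagaaccgaccttgcg
The form with the RefSeq start was the commonest miR-99b read of control replicate 1, at 20255 reads (41.1%). It had 1 and 1 reads in the thapsigargin libraries and 9 in control replicate 2. The form 1 base later was the commonest in thapsigargin replicates 1 and 2, at 18688 reads (40.6%) and 3284 reads (42.0%), and in control replicate 2, at 34298 reads (48.5%), and it had 227 reads in control replicate 1. The 2 controls thus differed in form, and control replicate 2 resembled the thapsigargin libraries.

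Over all reads of miR-99b, 0.0369% and 0.0384% had the RefSeq 5′ end with thapsigargin, against 85.1% and 0.0410% in controls. For miR-100 the shares were 0 and 0% with thapsigargin and 89.0% and 0.0380% in controls, and for miR-99a they were 0.196% and 0% against 74.5% and 0.232%. Bases 2 to 8 of the shorter form read CCCGUAG in place of ACCCGUA when counted from the first sequenced base. The trimming of the reads is not stated in the labels or file headers, and the same shift ran through nearly all arms, so the shorter form is not shown to be another seed in the cells. The exact two-sided permutation test over libraries gave p = 0.333 for each main arm, the smallest p that 2 libraries against 2 allow, and p = 0.5 after Benjamini-Hochberg adjustment over 6 comparisons of start and length. Control replicate 1 set each of these differences. Without it the difference was -0.13 percentage points for miR-99a, -0.0034 for miR-99b and -0.038 for miR-100.

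Read length was compared in the same way. miR-99b reads averaged 20.4 and 20.6 nt with thapsigargin and 21.1 and 20.7 nt in controls (exact permutation p = 0.333). miR-100 reads averaged 20.5 and 20.2 nt with thapsigargin and 21.2 and 20.03 nt in controls (exact permutation p = 1). miR-99a reads averaged 20.4 and 20.5 nt with thapsigargin and 20.8 and 20.4 nt in controls (exact permutation p = 0.667). Without control replicate 1 the difference turned to 0.31 nt for miR-100 and 0.016 nt for miR-99a, and it was -0.18 nt for miR-99b. The commonest length was 22 nt for each main arm in control replicate 1. It was 21 nt for each in the other libraries, except miR-100 in control replicate 2, at 19 nt.

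**Figure D4:**
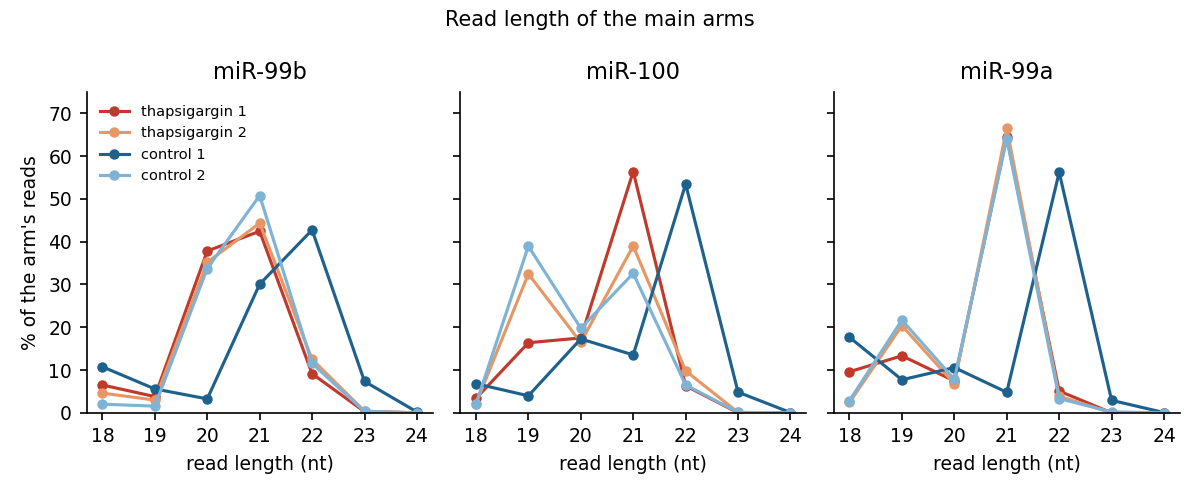
Share of each main arm's reads at each length from 18 to 24 nt, with 1 line per library. Control replicate 1 peaks at 22 nt in all 3 panels. miR-100 has a peak at 19 nt in control replicate 2 and thapsigargin replicate 2. miR-99a also has a peak at 19 nt, in every library but control replicate 1.

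A further set of reads began inside the arm, such as the 5′ short form of miR-99b above. That 18-nt read made up 4.83% and 3.34% of miR-99b reads with thapsigargin and 5.69% and 1.41% in controls. It lies 1 base further from the usual start in control replicate 1 than in the other libraries. miR-99b reads of any length starting 3 bases after the library's usual start made up 5.52% and 3.91% with thapsigargin. In controls they made up 6.01% and 1.60%. Reads starting later than the library's usual start made up 10.3% and 2.91% of miR-99a reads with thapsigargin and 25.5% and 3.02% in controls. For miR-99b they made up 8.80% and 6.47% against 14.9% and 2.93%, and for miR-100 5.03% and 3.27% against 10.99% and 2.75%. In all 3 arms both libraries numbered 1 had more of these reads than both libraries numbered 2, whatever the treatment. The files hold no read under 18 nt, so shorter pieces were not seen. Main-arm reads of control replicate 1 mostly began at RefSeq base 1, and those of the other libraries at base 2. An 18-nt read of control replicate 1, without its first base, would fall below that floor. Of miR-99a reads, 18-nt reads with a later start made up 9.61% and 2.43% with thapsigargin and 17.4% and 2.87% in controls. So the shares of control replicate 1 are not on equal terms with the others.

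The 3′ ends were compared among reads with each library's usual start. The miR-100 forms that differed most are shown, with the 2 bases that the longer one adds in capitals.
19 nt: acccgtagatccgaacttg
21 nt: acccgtagatccgaacttgTG
Reads ending 2 bases before the RefSeq end made up 16.4% and 32.6% of miR-100 with thapsigargin and 18.3% and 39.6% in controls. Reads ending at the RefSeq end made up 59.3% and 40.3% with thapsigargin and 59.9% and 33.3% in controls. The libraries numbered 1 thus resembled each other across the treatment, as did those numbered 2. The same held for miR-99a, where reads 2 bases short made up 14.6% and 21.0% with thapsigargin and 13.9% and 22.3% in controls.

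miR-99b ended otherwise. Only 2.51% and 1.81% of its reads with thapsigargin, and 2.10% and 0.995% in controls, were 2 bases short. Reads 1 base short made up 40.6% and 37.0% with thapsigargin and 34.7% and 34.4% in controls, and reads with the RefSeq end 46.4% and 47.3% against 50.1% and 52.2%. Both of these shares separated the treatment groups, by little. They are parts of the same total, and how often other arms separate in this way was not counted. Reads with 1 more base after the RefSeq end mostly had an A there, at 6.79% and 9.27% with thapsigargin and 6.75% and 9.11% in controls, and the groups overlapped. Reads with a T there made up 2.996% and 3.75% with thapsigargin and 1.67% and 2.47% in controls. Whether these bases match the miR-99b hairpin was not examined.

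For miR-100, whose hairpin goes on with C, an added T made up 0.936% and 0.915% with thapsigargin and 0.604% and 0.691% in controls. An added G, also not in the hairpin, made up 5.95% of miR-100 reads in thapsigargin replicate 2, against 1.52% in thapsigargin replicate 1 and 1.33% and 1.98% in controls. In miR-99a, whose hairpin goes on with G, an added T made up 1.42% and 0.5% with thapsigargin and 0.436% and 0.641% in controls, and the groups overlapped. These miR-99a shares are of 913 and 200 reads with thapsigargin and 1148 and 1249 in controls. The miR-100 shares are of 5983 and 1093 reads with thapsigargin and 6620 and 7668 in controls. The shares of added T thus rest on few reads.

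**Figure D5:**
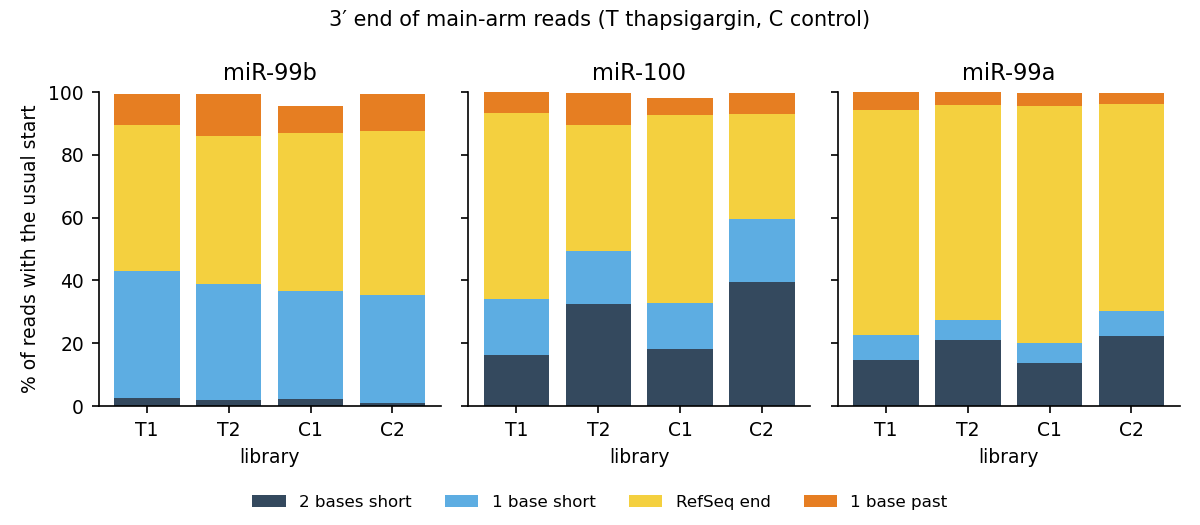
Where main-arm reads end relative to the RefSeq 3′ end, as a percent of reads with the library's usual start (T thapsigargin, C control, replicates 1 and 2), with rarer ends not drawn. In miR-100 reads 2 bases short make up 16.4% and 18.3% in the libraries numbered 1 and 32.6% and 39.6% in those numbered 2, while in miR-99b they stay at 2.51% or below.

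The commonest miR-99b* read differed between the groups. It is shown beside the form without the last base, with the base that departs from RefSeq in capitals.
20 nt: aagctcgtgtctgtgggtcT
19 nt: aagctcgtgtctgtgggtc
The last T is C21T against the RefSeq arm, with the RefSeq base first and positions counted from its 5′ end. The 20-nt form was the commonest miR-99b* read in both thapsigargin libraries, at 110 and 87 reads, while the commonest reads of the controls ended in the RefSeq bases. Counting every 5′ start, reads ending in this T made up 23.8% (95% Wilson interval 20.3 to 27.8) and 23.4% (19.5 to 27.8) of miR-99b* with thapsigargin, against 11.2% (8.69 to 14.4) and 10.5% (7.65 to 14.3) in controls. Reads reaching the RefSeq base C at that place made up 59.3% and 54.9% with thapsigargin and 73.9% and 74.2% in controls. In both measures the replicates of a group lay close together, control replicate 1 included. The T end was singled out after its values were seen and has no test, and the intervals cover counting error only. How often the commonest read or the end forms of other arms separate the groups in this way was not counted.

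Most miR-99a* reads ran past the RefSeq end. Reads ending 2 bases past it made up 68.8% and 73.3% with thapsigargin and 69.5% and 55.6% in controls. Reads ending 1 base past it made up 17.2% and 13.3% with thapsigargin and 15.3% and 38.9% in controls. miR-100* began later than RefSeq gives it. Its reads started 2 bases later in 64.7% and 100% with thapsigargin and in 0% and 94.4% in controls, where control replicate 1 had 77.4% starting 1 base later. The 0% goes with the 1-base shift that set control replicate 1 apart in nearly all arms. miR-99a* had 15 to 64 reads per library and miR-100* had 16 to 31.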

How the data were processed

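Small RNA was sequenced from 2 thapsigargin and 2 control libraries, made with a small RNA kit per the labels' protocols. CASAVA 1.8.1, cutadapt, Bowtie, DESeq 1.4.1 and mouse build mm9 are named in the submitters' processing notes, without their order or settings. The authors deposited tables that list every sequenced form with its count, and summaries per miRNA with each count as a percent of the total. Their deposited comparison table gives log2 fold changes and p-values, of which only the fold changes are quoted here. Sequences and chromosomes come from RefSeq (GRCm38.p6), and all 6 members matched. As that is another build, no positions are given.

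Read counts were summed per arm from the read tables. The deposited mature summary of thapsigargin replicate 2 was not used, because its names and counts disagree with that sample's own read table. Which library that summary came from is not known. The test was edgeR 4.0.16 in R 4.3.3 (quasi-likelihood, robust, TMM, filterByExpr with minimum count 10, two-sided) on all arms together. The standard error is the log2 fold change over the root of F. Reads were placed on the RefSeq arm without gaps, at the start with fewest mismatches. Placement and test were checked on simulated data. Alternatives used DESeq2 1.42.0 and limma 3.58.1 (voom), and exact tests scipy 1.17.1. Named arms are the members, all arms of the neighbouring let-7 and miR-125 genes and of miR-10, and the 5 nearest profiles. Members and lists were chosen with earlier results of these data known.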

Additional observations from a re-analysis of the deposited data

How the results depend on the processing

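The log2 fold changes of miR-99a, miR-99b and miR-100 stayed below 0 under 13 alternatives. These were other scalings and tools, no filter, ambiguous reads added, miR-10b left out and the replicate block. The others were control replicate 1 shortened by its leading base, and each library left out. Under the alternatives that kept all libraries, the fold changes also stayed within the spread between replicates. With 2 libraries per group, leaving a library out shifts a fold change by about that spread at most, so that measure cannot judge those fits. Without control replicate 2 miR-99b was at -0.68. Using mature summaries for all libraries but thapsigargin replicate 2 gave the same counts for the members, so it tested nothing. The log2 ratio of their sum ranged from -1.51 to -1.34 under the alternatives that kept all libraries and from -1.91 to -0.70 with each library left out. With that base removed, the fold changes were -1.19, -1.36 and -1.19. Scaling by total reads alone moved the median of all arms from -0.01 to -0.36, and the members lay at -1.54, -1.53 and -1.40. With the replicate block the fit called 0 arms, with 30 at an unadjusted p under 0.05, and gave -1.33, -1.35 and -1.23. Replicates with the same number deviated together (correlation 0.569 over 310 arms), but the labels give only a number.

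The count of called arms was 3 of 630 without the filter, and 0 to 3 with each library left out (1 without control replicate 1, 3 without control replicate 2). The cause was not tested. The star share difference ranged from 2.66 to 4.97 points for miR-99a, 0.338 to 4.23 for miR-99b and -0.0523 to 1.07 for miR-100 with each library left out. The difference in RefSeq 5′ ends ranged from -89.0 to -0.038 points for miR-100, -85.0 to -0.0034 for miR-99b and -74.4 to -0.13 for miR-99a. Without control replicate 1 the length differences were 0.31 nt for miR-100 and 0.016 nt for miR-99a, of opposite sign to those over all libraries (-0.26 and -0.18 nt). The star arms of miR-99a and miR-100 rest on 15 to 64 reads per library.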
